A study of Mus musculus with 4 samples.

Results

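Mitochondrial ribosomal protein genes were taken as the entries whose gene symbol is Mrpl or Mrps followed by a number and at most 1 letter. The rule took 75 of the 26815 entries in the authors' deposited table, under 74 symbols, because Mrps28 has 2 entries at the same locus. All 75 were among the 15315 entries that the authors tested, so none was lost to a filter on low values. By known structure, 49 entries encode proteins of the large subunit, Mrps30 and Mrps18a among them, 25 encode proteins of the small subunit, and Mrps36 is not counted as a core subunit. The subunit genes Mrps6, Mrps23 and Mrpl53 fall outside the rule because the table merges each with another gene.

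The series holds 4 poly(A) RNA libraries of cortical neural stem cells from CD-1 mouse embryos at E14.5, expanded as a monolayer on coated plates with the growth factors EGF and bFGF. All cells were transduced with a lentivirus and selected in puromycin at 0.5 µg/mL. In 2 libraries the virus carried a scrambled shRNA (SHC002) and in the other 2 an shRNA against Foxp1 (pLKO.1_sh_ex15), a single hairpin, and the duplicates were cultures of different passages of purchased cells. The deposited values set a condition named q2 against another named q1, and no label or header says which code is which shRNA, so every direction below is that of q2 relative to q1. No values per library were used, so neither the spread between the 2 cultures of a group nor the read depth can be given, and in bulk RNA fewer cells of a type and less RNA per cell cannot be told apart.

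The mitochondrial ribosome sits in the mitochondrial matrix and translates the mRNAs of mitochondrial DNA, which encode core subunits of the respiratory chain and ATP synthase. Its ribosomal RNAs come from mitochondrial DNA, but all of its proteins are encoded in the nucleus, made in the cytosol and imported. Many descend from bacterial ribosomal proteins, and others exist only in mitochondria, where they form much of the outer shell of both subunits.

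Foxp1, the targeted forkhead transcription factor, had a log2 value of -2.03 for q2 against q1, or 4.09-fold lower (the authors' deposited table, Cuffdiff q = 0.00162). Of all 15315 tested entries, 1168 (7.63%) were called at a Cuffdiff q under 0.05, 649 higher in q2 (4.24%) and 519 lower (3.39%). All 8 neural stem cell markers examined were among the tested entries, with Nes and Sox1 called higher and Fabp7 lower in q2. Of the markers of other cell types, 2 of 5 for microglia, 2 of 5 for endothelium and pericytes, 2 of 5 for fibroblasts, 3 of 4 for neurons, 2 of 4 for oligodendrocytes and 4 of 4 for astrocytes were tested. Of the 4 astrocyte markers 3 were called lower in q2, and the part of such differences in the values below was not tested.

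Of the 75 mitochondrial ribosomal protein entries, 1 was called higher in q2, none was called lower and 74 were not called, against 4.24% higher and 3.39% lower over all tested entries. The called gene was Mrpl14, which encodes the protein uL14m at the face where the subunits meet. At an unadjusted p under 0.05 the members numbered 2 higher (Mrpl14 and Mrps18b) and 3 lower (Mrpl47, Mrps18c and Mrpl30), where 9.46% and 9.74% of all tested entries passed. Their log2 fold changes had a median of -0.08 and an interquartile range from -0.22 to 0.10, and 29 of 75 were positive (38.7%). Over all tested entries 45.7% were positive, and the 15197 with a finite value had a median of -0.05 and an interquartile range from -0.35 to 0.28. The members' values were thus centred close to those of the table and lay closer together.

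**Figure D1:**
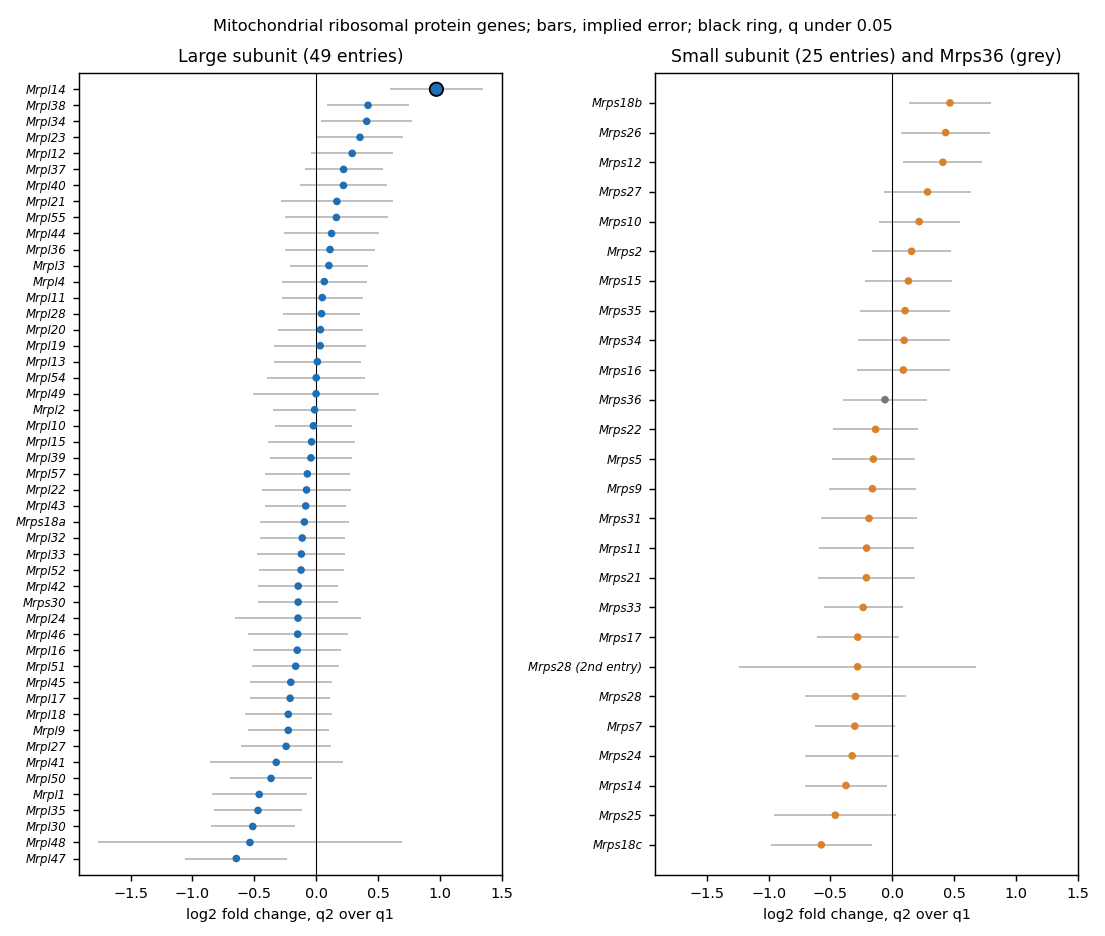
The x axis gives the log2 ratio of q2 to q1 from the authors' deposited table for each entry of the large subunit (left, blue), of the small subunit (right, orange) and for Mrps36 (grey), ordered by value. Bars show the implied error, the size of the log2 fold change divided by the authors' test statistic. Mrpl14, ringed, stands at 0.97, apart from all others, which lie between -0.65 and 0.47.

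Mrpl14 (chromosome 17, 45686372 to 45698495, plus strand, mm10) had, by the authors' deposited table, a log2 fold change of 0.97, or 1.96-fold higher in q2, with a test statistic of 2.60, p = 0.0003 and Cuffdiff q = 0.00719. Dividing a log2 fold change by its statistic gives a measure of its error, called the implied error here. Normal p-values for the same statistics lowered the calls over the whole table from 1168 to 457. The implied error may therefore exceed the error behind the authors' calls. For Mrpl14 the implied error was 0.37 log2 units, and its median over the 75 entries was 0.35. The next highest member, Mrps18b, stood 0.51 below Mrpl14, a difference about as large as its combined implied error of 0.50. In a fit with the table-wide trend on transcript GC content removed, Mrpl14 stood at 0.71 with a Benjamini-Hochberg adjusted p of 0.0904, and over all alternatives its adjusted p ranged from 0.00344 to 0.184. The call on Mrpl14 therefore did not survive every processing choice.

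Of the 75 log2 fold changes 70 (93.3%) lay within 0.5 of 0, compared with 67.7% of all tested entries. The members' implied errors lay between 0.31 and 1.23 log2 units, and 5 exceeded 0.5. For a comparison at like implied error, 5085 other tested entries were taken. Their implied errors lay between 0.32 and 0.41, the 10th and 90th percentiles of the 75 members. Those entries had an interquartile range 0.50 log2 units wide, against 0.32 for the 75 members, and 77.9% of them lay within 0.5 of 0. The same entries show which sizes the authors' test could call: none of 3962 changes under 0.5 was called, 7.72% of those from 0.5 to 0.75, and 91.7% of those from 0.75 to 1. The smallest change called among these entries was 0.67, and every member but Mrpl14 lay below that size. At these implied errors smaller changes were thus not called, and the limit was not worked out for genes with other errors. The absence of a call does not show that a gene was equal in both conditions.

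**Figure D2:**
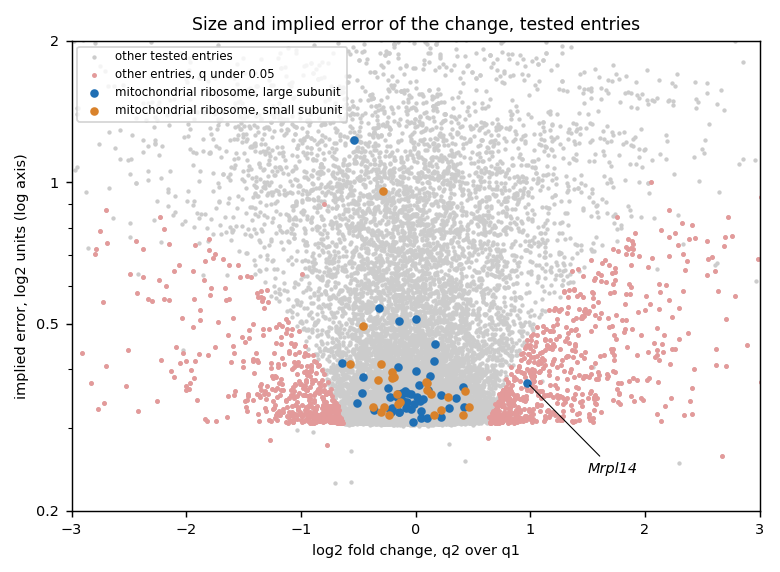
The log2 ratio of q2 to q1 (x axis) from the authors' deposited table is plotted against the implied error in log2 units (y axis, log scale), with each tested entry a grey point, or pink at a q under 0.05, and the large-subunit and small-subunit entries in blue and orange (Mrps36 is not drawn). The members cluster near the lower edge between implied errors of 0.31 and 0.41 and inside the fold changes that were called, with Mrpl14 the exception; the points at 1.23 and 0.96 are Mrpl48 and the second entry of Mrps28.

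Several members lie head to head with another gene, so that a short stretch of DNA separates a pair of starts facing away from each other. Of 65 members with a locus of their own 17 (26.2%) had such a neighbour within 1000 bases, against 1169 of 9558 tested genes (12.2%), shares given with no test, and 16 pairs had a tested neighbour. Over these 16 pairs the gaps measured 32 to 307 bases, with a median of 128. The stretches below run 5′ to 3′ on the member's strand, from the neighbour's locus to the member's, and come from the RefSeq promoter table (GRCm38.p6, the same assembly as mm10). They were chosen because they hold the called gene, the members of the Mrps18 and Mrps12 pairs, a pair that is made of 2 members, and the motifs described next. Capitals mark a match to CCGGAAG, the core bound by ETS factors such as GABP, or to its reverse complement CTTCCGG, and in Mrpl32 a match to the palindrome of NRF1, which is GCGCA followed directly by TGCGC.
Mrpl14 and Tmem63b (chr17:45686219-45686371, plus strand): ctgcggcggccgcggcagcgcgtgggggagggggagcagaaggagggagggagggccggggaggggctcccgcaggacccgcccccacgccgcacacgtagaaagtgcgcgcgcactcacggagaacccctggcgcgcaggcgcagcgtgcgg
Mrps18c and Helq (chr5:100798601-100798758, plus strand): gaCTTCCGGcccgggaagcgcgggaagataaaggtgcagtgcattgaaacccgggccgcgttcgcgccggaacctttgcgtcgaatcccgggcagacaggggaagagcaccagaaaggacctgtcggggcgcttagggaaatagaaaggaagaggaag
Mrps12 and Sars2 (chr7:28741782-28741967, minus strand): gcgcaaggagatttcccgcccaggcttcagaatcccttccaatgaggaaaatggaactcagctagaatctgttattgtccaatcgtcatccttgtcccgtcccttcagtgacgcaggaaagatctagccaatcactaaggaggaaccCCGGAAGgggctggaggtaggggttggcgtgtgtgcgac
Mrpl43 and Peo1 (chr19:45006443-45006557, minus strand): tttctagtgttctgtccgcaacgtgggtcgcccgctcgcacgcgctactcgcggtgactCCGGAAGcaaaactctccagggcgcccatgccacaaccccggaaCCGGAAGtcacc
Mrpl32 and Psma2 (chr13:14613038-14613241, minus strand): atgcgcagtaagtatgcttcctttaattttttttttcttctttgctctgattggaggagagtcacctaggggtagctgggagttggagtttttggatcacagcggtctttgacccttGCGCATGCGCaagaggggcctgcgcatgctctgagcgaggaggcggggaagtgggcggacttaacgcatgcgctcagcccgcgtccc
Mrps11 and Mrpl46 (chr7:78783090-78783130, plus strand): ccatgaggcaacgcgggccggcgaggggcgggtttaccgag
Of 12 distinct gaps that could be read from this source, 4 held one of the motifs searched. The gap beside Mrpl14 held none and was 77.8% G and C.

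None of the neighbours was called, and 3 of 16 reached an unadjusted p under 0.05, namely Gga3, Eme2 and 2610507I01Rik. Over all tested entries 7.63% were called, and 9.46% higher and 9.74% lower passed that p. Mrpl14 at 0.97 faced Tmem63b, a membrane channel gene, at -0.29 in the authors' deposited table, so the called member and its neighbour lay on opposite sides of 0. Mrps12, which encodes a protein of the decoding centre, and Sars2, the mitochondrial seryl-tRNA synthetase, lay close together at 0.41 and 0.43 in the authors' deposited table. Mrps11 and Mrpl46, 1 protein of each subunit with 41 bases between their loci, stood at -0.21 and -0.15 in the authors' deposited table. On the lower side, Mrpl30 and Mitd1 were at -0.51 and -0.55, Mrpl47 and the complex I gene Ndufb5 at -0.65 and -0.25, and Mrpl50 and Zfp189 at -0.36 and -0.42 in the authors' deposited table. The pair of Mrps18c and the helicase gene Helq stood at -0.57 and -0.27, and that of Mrpl32 and the proteasome gene Psma2 at -0.11 and -0.10 in the authors' deposited table. The 6 pairs of opposite sign were that of Mrpl14, Mrps7 with Gga3 at -0.30 and 0.49 (p of Gga3 = 0.0329), Mrps34 with Eme2 at 0.10 and -0.53 (p of Eme2 = 0.0471), Mrpl43 with Peo1, the mitochondrial DNA helicase, at -0.08 and 0.22, Mrpl10 with Lrrc46 at -0.02 and 0.73, and Mrpl13 with Mtbp at 0.01 and -0.08 in the authors' deposited table. Across the 16 pairs 10 had the same sign, and Pearson's r was 0.23 and Spearman's rho 0.36, given as a description since the points share libraries and local base composition.

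**Figure D3:**
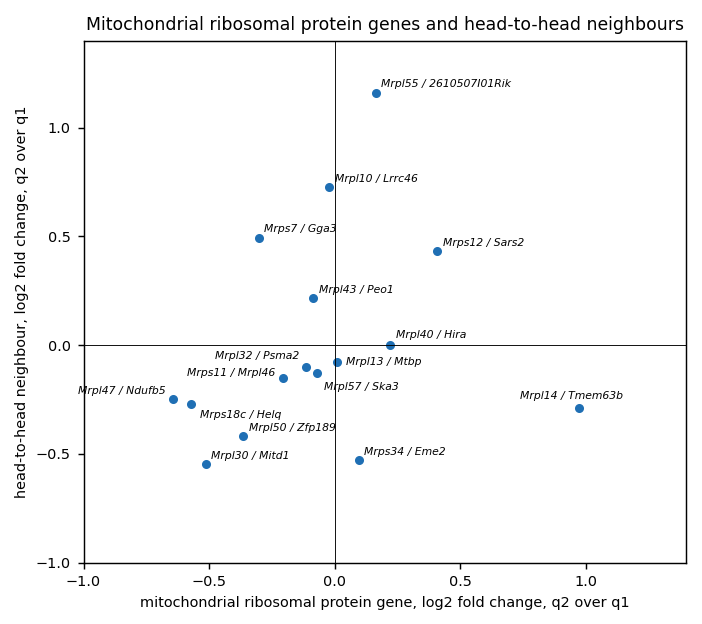
The log2 ratio of q2 to q1 from the authors' deposited table is plotted for the mitochondrial ribosomal protein gene (x axis) and its head-to-head neighbour (y axis), 1 point per pair, 16 pairs. The points spread over all sides of the origin, 10 with the same sign on both axes, while Mrpl14 with Tmem63b (0.97 and -0.29) and Mrpl55 with 2610507I01Rik (0.16 and 1.16) lie far from the diagonal.

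Nuclear genes of mitochondria are known as targets of NRF1, of the ETS factor GABP and of YY1, and the RefSeq promoters (250 bases before to 50 after a start) were searched for their cores on both strands, with any overlap counted. Of 74 member symbols 65 had a promoter in the table. The ETS core CCGGAAG was found in 23 of these 65 members (35.4%), in 9.93% of all genes in the table and in 20.4% of the tested genes. The NRF1 palindrome was found in 3 members (4.62%), Mrpl9, Mrpl32 and Mrpl39, against 1.07% of all genes and 2.42% of tested genes. The YY1 core, AAGATGG followed directly by CGG, was found in 5 members (7.69%), Mrpl35, Mrpl37, Mrps11, Mrps18a and Mrps27, against 0.995% and 2.51%. Each share was higher among members, a description from few genes with no test, at a median promoter GC content of 57.8% against 61.4% in tested genes. The 23 members with the ETS core had a median log2 fold change of -0.10, ranging from -0.57 to 0.47, and the 42 without it had a median of -0.15, ranging from -0.65 to 0.97. All members with the core lay inside the range of those without it, which alone held Mrpl14.

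Within the large subunit 19 of 49 entries were positive, with a median log2 fold change of -0.07. Mrpl14 was the only one called, against 7.63% of all tested entries. Of the 4 genes around the peptidyl transferase centre, where peptide bonds form, 3 were negative, as were 46 of all 75 members. They were Mrpl27 at -0.24, Mrpl16 at -0.15 and Mrpl2 at -0.01, while Mrpl3 stood at 0.10 in the authors' deposited table. At the exit of the tunnel through which the new protein leaves, 5 of 6 entries were negative, with a median of -0.18. Mrpl47 (uL29m) was the lowest of all members, at a log2 fold change of -0.65, or 1.56-fold lower, by the authors' deposited table (implied error 0.41, p = 0.0261, Cuffdiff q = 0.178). Its neighbours at the exit were Mrpl17 and Mrpl45, the latter a membrane anchor of the ribosome, both at -0.21, Mrpl24 at -0.15, Mrpl22 at -0.08 and, on the other side of 0, Mrpl23 at 0.35 in the authors' deposited table. No exit gene passed the test.

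The 4 genes of stalk proteins spread over both sides of 0, with Mrpl1 at -0.46, Mrpl10 at -0.02, Mrpl11 at 0.05 and Mrpl12 at 0.29 in the authors' deposited table. Mrpl12, which also binds the mitochondrial RNA polymerase, and Mrpl10 form the same stalk. In the central protuberance, the crown of the subunit, 3 of 7 entries were positive, and the values ran from Mrpl48 at -0.54 through Mrpl18 at -0.23, Mrpl46 at -0.15, Mrpl52 at -0.12, Mrpl55 at 0.16 and Mrpl40 at 0.22 to Mrpl38 at 0.42 in the authors' deposited table. Mrpl38, the fourth highest member, had an implied error of 0.33, p = 0.0715 and Cuffdiff q = 0.317 by the authors' deposited table. Mrpl48 was the third lowest member but by far the least precisely measured, with an implied error of 1.23 and a Cuffdiff q of 0.833 by the authors' deposited table. Its locus is shared with another entry of the table.

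Of the other large-subunit proteins with bacterial homologues, Mrpl30 (-0.51, implied error 0.34, p = 0.0329, Cuffdiff q = 0.202) and Mrpl35 (-0.47, implied error 0.36, Cuffdiff q = 0.292) were lowest in the authors' deposited table. Mrpl34 at 0.41 was the highest after Mrpl14 in the authors' deposited table. The rest of this group, Mrpl9, Mrpl33, Mrpl32, Mrpl15, Mrpl13, Mrpl19, Mrpl20, Mrpl28, Mrpl4, Mrpl36 and Mrpl21, ran from -0.23 to 0.17 in the authors' deposited table. Among mitochondria-specific proteins outside the central protuberance and the exit, Mrpl50 at -0.36 and Mrpl41 at -0.32 were lowest and Mrpl37 at 0.22 and Mrpl44 at 0.12 highest in the authors' deposited table. Between them stood Mrpl51, Mrps30, Mrpl42, Mrps18a, Mrpl43, Mrpl57, Mrpl39, Mrpl49 and Mrpl54, from -0.17 to 0.000252 in the authors' deposited table. Of the 30 large-subunit entries with a bacterial homologue 14 were positive (median -0.02), and of the 19 mitochondria-specific entries 5 were (median -0.10).

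Within the small subunit 10 of 25 entries were positive, and the median log2 fold change was -0.16. None was called, against 7.63% of all tested entries. In the small subunit, regions were assigned only to bacterial homologues, so the counts by region leave out mitochondria-specific proteins. The head, which swivels as tRNAs move, had 4 of 5 assigned entries below 0. These were Mrps14 at -0.37, Mrps24 at -0.32, Mrps7 at -0.30 and Mrps9 at -0.16, while Mrps10 stood at 0.22 in the authors' deposited table. On the platform, 3 of 4 were negative, with Mrps18c at -0.57, Mrps21 and Mrps11 at -0.21, and Mrps15 at 0.13 in the authors' deposited table. The body was split, with Mrps17 at -0.28, Mrps5 at -0.15, Mrps16 at 0.09 and Mrps12 at 0.41 (implied error 0.32, p = 0.0711, Cuffdiff q = 0.316) in the authors' deposited table. The remaining bacterial homologues were Mrps2 at 0.16 and Mrps28, whose 2 entries stood at -0.30 and -0.28 in the authors' deposited table. The proteins of the small subunit whose current names mark them as mitochondria-specific held its highest values, Mrps18b at 0.47 and Mrps26 at 0.43 (implied error 0.36, p = 0.0899, Cuffdiff q = 0.359), with Mrps27 at 0.28 and, on the other side of 0, Mrps25 at -0.46 in the authors' deposited table. The others of this class, Mrps33, Mrps31, Mrps22, Mrps34 and Mrps35, ran from -0.24 to 0.10 in the authors' deposited table. Of these 9 entries 5 were positive (median 0.10), against 5 of the 16 small-subunit entries with a bacterial homologue (median -0.21). With Mrps18b counted instead as a bacterial homologue, by its descent from bS18, 4 of 8 mitochondria-specific entries were positive (median -0.020) and 6 of 17 homologues (median -0.21), so the class median of 0.10 rests on that 1 entry. No test was made between the classes. Mrps36, now known as a part of the 2-oxoglutarate dehydrogenase complex, stood at -0.06 in the authors' deposited table.

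Mrps18a, Mrps18b and Mrps18c descend from the gene of 1 bacterial protein, bS18, and their products occupy different places, that of Mrps18a on the large subunit. Current protein names keep bS18 for Mrps18c alone and class the others as mitochondria-specific, as done above. By the authors' deposited table Mrps18b was 1.38-fold higher in q2, with a log2 fold change of 0.47 (implied error 0.33, p = 0.0456, Cuffdiff q = 0.246). By the same measure of the authors' deposited table, Mrps18c was 1.49-fold lower, with -0.57 (implied error 0.41, p = 0.0452, Cuffdiff q = 0.245). Mrps18a lay between them at -0.10 by the authors' deposited table (implied error 0.36, Cuffdiff q = 0.899). No gene of these 3 passed the test over all entries. Mrps18b exceeded Mrps18c by 1.04 log2 units with a combined implied error of 0.53, and exceeded Mrps18a by 0.56 with 0.49, and Mrps18a exceeded Mrps18c by 0.48 with 0.55. These combined errors treat the genes as independent, the genes were picked with their values known, and no p was computed.

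Variants in many of these genes cause mitochondrial disease in people, often with heart, liver or brain involvement. The 15 entries for such genes among the members were Mrps2, Mrps7, Mrps14, Mrps16, Mrps22, Mrps25, Mrps28 (both entries), Mrps34, Mrpl3, Mrpl12, Mrpl24, Mrpl39, Mrpl44 and Mrpl50. Their median log2 fold change was -0.14, 6 were positive, and the values ran from -0.46 (Mrps25) to 0.29 (Mrpl12) in the authors' deposited table. No such entry was called, against 7.63% of all tested entries. None reached an unadjusted p under 0.05, which 9.46% of all tested entries passed higher and 9.74% lower. Of the 75 entries 10 shared their locus with another entry, so that reads may have been split between genes. Those 10 had a median implied error of 0.50 and a median log2 fold change of -0.21, with 7 negative. The 65 others had a median implied error of 0.35 and a median log2 fold change of -0.08, with 39 negative.

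The log2 fold changes of the members moved with the GC content of their transcripts, as did those of the whole table. Across the 75 entries Pearson's r was 0.44 and Spearman's rho 0.40, and across 12107 tested genes 0.30 and 0.42, as descriptions over genes measured in the same libraries. With the genes divided into 3 equal classes by GC content, from poor to rich, members had medians of -0.16 (22 entries), -0.02 (26) and 0.00025 (27), and all genes -0.24, -0.03 and 0.20. In the GC-rich class the members thus lay below the genes of like composition. Mrpl14, at 58.9% GC, and Mrpl38, at 59.1%, were among the GC-rich members, and Mrpl47, at 45.3%, and Mrps18c, at 45.0%, among the GC-poor. With the median trend on GC content subtracted, 20 of the 75 members changed sign, and no member was called. Mrpl38 then stood at 0.15, Mrps12 at 0.17, Mrpl34 at 0.15, Mrpl35 at -0.29, Mrps18c at -0.37 and Mrpl47 at -0.48. The lowest member was then Mrps24 at -0.63, in place of Mrpl47, while Mrpl14 was the highest in both. The order of the members therefore depends on this step. Whether base composition has a part in these differences was not tested.

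**Figure D4:**
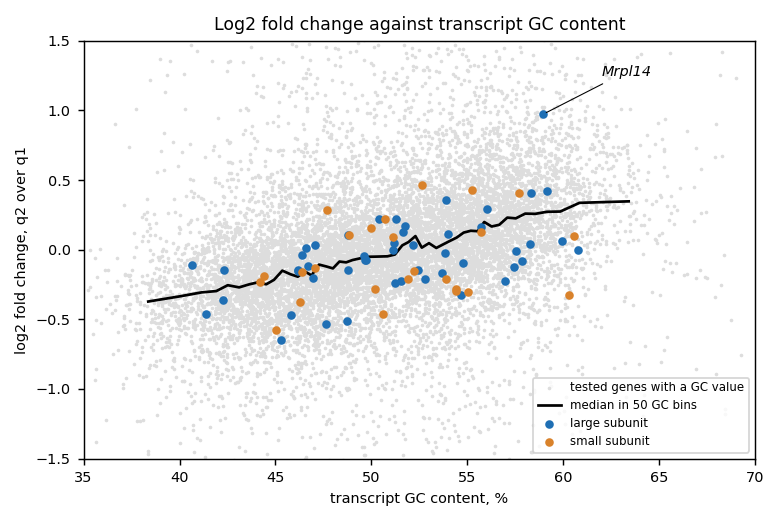
The log2 ratio of q2 to q1 from the authors' deposited table (y axis) is plotted against transcript GC content in percent (x axis) for tested genes (grey), with the median in 50 bins of GC content (black line) and the entries of the large and small subunit in blue and orange (Mrps36 is not drawn). The line climbs from -0.37 at the lowest GC content, and Mrpl14 at 58.9% GC lies above it.

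Other genes of mitochondrial translation were described from fixed lists. Among all tested entries 7.63% were called, and 9.46% higher and 9.74% lower had an unadjusted p under 0.05. The 6 tested genes of further mitochondrial ribosomal subunits that carry other names were all negative, with Ptcd3 at -0.37, Dap3 at -0.23, Aurkaip1 and Ict1 at -0.21, Gadd45gip1 at -0.08 and Chchd1 at -0.05 in the authors' deposited table. No gene of these 6 was called or reached an unadjusted p under 0.05. The merged entries holding Mrpl53, Mrps23 and Mrps6 stood at 0.35, 0.06 and -0.42 in the authors' deposited table, and none was called. Of 26 assembly factors, which modify and fold the ribosomal RNA, none was called (median 0.02), with the largest statistics in Wbscr16 at 0.41 and the methyltransferase gene Mettl15 at -0.32 in the authors' deposited table. Malsu1, whose protein binds that of Mrpl14 during assembly, had a value of -0.26 (Cuffdiff q = 0.643) by the authors' deposited table. Of 16 translation factors none was called (median -0.06), and Taco1, an activator of cytochrome c oxidase subunit translation, at -0.44 and the initiation factor Mtif2 at -0.24 had the largest statistics in the authors' deposited table. Neither the assembly factors nor the translation factors held a gene at an unadjusted p under 0.05.

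Of 20 genes for charging mitochondrial tRNAs none was called (median -0.03). The nearest to a call were Lars2 at -0.65 (Cuffdiff q = 0.0587) and Pars2 at 0.74 (Cuffdiff q = 0.108) in the authors' deposited table, of opposite sign. Of 11 tested genes for expression and copying of mitochondrial DNA, 1 was called, the transcription factor Tfb2m, at a log2 fold change of -0.91 or 1.87-fold lower by the authors' deposited table (Cuffdiff q = 0.018). The 13 mRNAs of mitochondrial DNA, which the mitochondrial ribosome translates, had no entry under the symbols searched and could not be described. Among 11 transcriptional regulators known to act on mitochondrial genes, Pprc1, a coactivator of NRF1, was 1.83-fold higher (Cuffdiff q = 0.00292) and Myc 1.65-fold higher (Cuffdiff q = 0.018) in q2, by the authors' deposited table. The factors whose cores were searched in the promoters were not called, with Nrf1 at -0.01, Gabpa at -0.21, Gabpb1 at -0.53 and Yy1 at -0.03 in the authors' deposited table.

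The members were last set beside the proteins of the cytosolic ribosome and of oxidative phosphorylation, which are also encoded in the nucleus. Of 81 tested cytosolic ribosomal protein entries 24 were positive (29.6%), with a median of -0.11. Rpl12 at 0.90 and Rpl8 at 0.83 were called higher and Rpl37a at -0.80 lower in the authors' deposited table. Of 80 tested entries matched by symbol alone to oxidative phosphorylation, Atp5s and Atp5sl among them, 12 were positive (15.0%), with a median of -0.25. Cox6b2 at 1.17 was called higher and Cox7c at -0.85 and Ndufa6 at -0.75 lower in the authors' deposited table. Of the cytosolic entries 78 of 81 were not called, and of the oxidative phosphorylation entries 77 of 80, where 7.63% of all tested entries were called. The mitochondrial ribosomal protein genes, with 38.7% positive and a median of -0.08, thus had the value nearest to that of the whole table among these 3 lists. No test was made between the lists, and all of their values come from the same comparison.

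**Figure D5:**
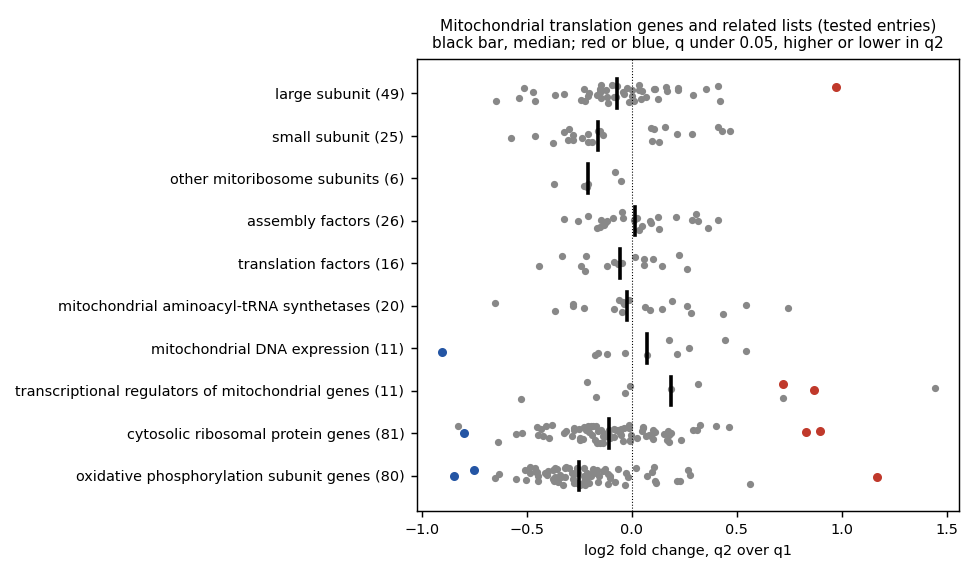
The x axis gives the log2 ratio of q2 to q1 from the authors' deposited table for the tested entries of the large and small subunit and of 8 related lists (rows, number of entries in brackets), with black bars at the medians and points at a q under 0.05 in red (higher in q2) or blue (lower). The medians run from -0.25 for oxidative phosphorylation to 0.19 for the transcriptional regulators, and Mrpl14 is the only red point of the large subunit.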

How the data were processed

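RNA was compared between 2 libraries of the scrambled shRNA and 2 of the Foxp1 shRNA, grouped by their titles. The submitters' processing notes name TopHat2 2.0.9, Cufflinks 2.2.1, Cuffdiff and build mm10. The Cuffdiff version, annotation and strand setting were not given in the sources used here. The deposited table holds log2 fold changes of q2 over q1, per the file headers. For the same contrast the authors give a test statistic, used here as a score. Its p-values and q-values were used as deposited; all 15315 q-values match a Benjamini-Hochberg adjustment over the tested entries (relative tolerance 0.001). The authors left 11500 entries untested. Because q1 and q2 match no label, the 2 columns that hold the expression values of q1 and of q2 were not used. What spread between cultures the p-values reflect is unknown, as are depth and its precision.

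The members, lists and tests were chosen with earlier results of these data known, and lists are described by counts and medians only. Every member is named, with fuller values for those called, those at an unadjusted p under 0.05, the 5 highest and 5 lowest, and the Mrps18 paralogues. From each other list, called genes were named, or otherwise the 2 with the largest statistic; Malsu1, Nrf1, Gabpa, Gabpb1 and Yy1 were added after their values were seen. A pseudocount had been planned and was not needed, since log2 fold changes were deposited. Coordinates are the authors' loci in mm10 (GRCm38), counted from 1. GC content and strand came from GENCODE M21 by symbol. One alternative subtracted the median log2 fold change in 50 GC bins and took p from how the deposited p varies with the deposited statistic. Its trial on simulated data used normal p-values, unlike the deposited ones, so it did not check that reading of p. The other alternatives were other q thresholds, a minimum fold change, normal p-values, centring, and fewer entries. Software was Python 3.11.15 with numpy 2.4.6, pandas 2.3.3, scipy 1.17.1, matplotlib 3.10.9 and scikit-learn 1.9.0.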

Additional observations from a re-analysis of the deposited data

How the results depend on the processing

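The count of members called higher in q2 was 1 (Mrpl14) in the authors' deposited table. It was 2 at an unadjusted p under 0.05, and 0 with a minimum absolute log2 fold change of 1, with p-values from the normal distribution for the authors' statistic, or with the GC trend removed. The count called lower was 0 and became 3 at an unadjusted p under 0.05. Of these settings only removal of the GC trend could change the log2 fold change of Mrpl14, which was then 0.71 with an adjusted p of 0.0904. Under the normal distribution its adjusted p was 0.184 at the log2 fold change as deposited. Keeping only entries above 0 on both sides, only unshared loci or only core subunits removed no called member, so both counts were bound to stay the same. Under a q of 0.01 or 0.1 and with centring on the table's median, both counts were unchanged. An added alternative, chosen after seeing the data, that read p from the statistic also left them unchanged (adjusted p of Mrpl14 0.00994). The median log2 fold change, -0.08, became -0.04 with centring and -0.03 without the GC trend. With Mrps18a and Mrps18b counted as bacterial homologues, also chosen after seeing the data, the median of the mitochondria-specific small-subunit entries moved from 0.10 to -0.020. Normal p-values lowered the calls over the whole table from 1168 to 457. No paired analysis was possible because the deposited table holds no values per library. For the same reason no replicate was left out and no other pseudocount was run. Unknown depth limits what can be said of genes with no call.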
